A study of Mus musculus with 16 samples.

Results

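Mitochondrial ribosomal proteins were followed here in the adipose tissue of lean mice and of mice made obese by a long-term high-fat diet. The genes were chosen by name, as every entry of the count table whose RefSeq accession belongs to a mouse gene with a symbol starting with Mrpl or Mrps and a number. This rule found 78 genes, which take 198 of the 130343 rows of the table. A row is 1 RefSeq transcript, and reads of a gene with several rows were divided among them in a way the sources used here do not state. The 38 genes with 1 row therefore carry the comparisons, and the 40 genes with several rows (160 rows) are shown beside them. Of the 38, 36 had enough counts to be tested. Mrpl40 was listed at 0 counts in all 16 libraries, and Mrpl20 held at most 1.70 CPM (counts scaled to a common library size) in any library, so neither was tested.

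Mitochondrial ribosomes, or mitoribosomes, translate the few proteins that mitochondrial DNA encodes, all of them core parts of the respiratory chain and of ATP synthase. The ribosomal RNA of the mitoribosome is made inside the organelle, whereas its proteins are encoded in the nucleus, made in the cytosol and imported. Some of them descend from bacterial ribosomal proteins and others exist only in mitochondria, and they assemble into a small subunit, which reads the messenger RNA, and a large subunit, which joins the amino acids. In adipocytes the respiratory chain they serve supports the making and burning of fat, and in brown and beige adipocytes also the release of heat. By published structures 26 of the 36 tested members belong to the large subunit and 10 to the small one. Mrps18a and Mrps30 carry a small-subunit name but sit in the large subunit and were counted there.

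RNA came from wild-type C57BL/6J male mice, which started their diets at 10 weeks of age and stayed on them for 12 to 14 months. Lean mice ate a normal laboratory diet, and obese mice a diet of 0.2% cholesterol in which fat supplied 42% of the calories. Each of 4 lean and 4 obese mice gave inguinal subcutaneous adipose tissue (SAT) and mesenteric visceral adipose tissue (VAT), so that 16 poly(A)-selected libraries form 4 groups of 4. All mice were male and of 1 strain, and visible vessels were removed before RNA was taken from the tissue as a whole, so fewer cells of a type and less RNA per cell cannot be told apart in any value below.

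Total counts ran from 1256082, in the first VAT library of the lean mice, to 16614407. In that shallow library the 36 members held between 21 and 194 counts each, with a median of 74, against a median of 513.5 over the other 15 libraries. Scd1, a fatty acid desaturase, alone took 3.28% to 14.0% of all counts in lean SAT and 23.7% to 25.7% in obese SAT, and 5.04% to 9.20% and 12.5% to 18.5% in lean and obese VAT. CPM values are therefore given after TMM scaling, which sets the bulk of genes level between libraries. The 6 adipocyte markers summed to 15728 to 22941 CPM in lean SAT, 17836 to 20015 in obese SAT, 8656 to 12020 in lean VAT and 7808 to 10202 in obese VAT. Most of the gap between the depots lay in Lep, the hormone leptin (9962 to 17192 CPM in lean SAT and 2384 to 5429 in lean VAT), while Adipoq, Plin1 and Cidec overlapped between the lean depots. Of the 12 tested rows of these markers 0 were lower under the diet in SAT and 5 in VAT, where Lipe, a lipase of stored fat, lay at 240 to 280.1 CPM in lean and 112 to 197 in obese mice. Between the depots 1 of the 12 rows was lower in VAT of lean mice and 9 in VAT of obese mice, where Lipe did not overlap with SAT (267 to 341 CPM). Summed markers of macrophages (5 of 5 found) ran from 577 to 743 CPM in lean SAT, 947 to 1382 in obese SAT, 925 to 1058 in lean VAT and 1698 to 2267 in obese VAT. B cell markers (4 of 4) lay at 3.99 to 8.11 CPM in SAT and 29.1 to 317.6 in VAT, and mesothelium markers (5 of 5) at up to 1.40 CPM in SAT and 243.8 to 595 in VAT. Brown and beige adipocyte markers (5 of 5) summed to 30.4 to 91.1 CPM in lean SAT, 13.4 to 20.2 in obese SAT, 32.3 to 73.2 in lean VAT and 27.9 to 35.9 in obese VAT. Cidea and Dio2 made up most of these sums, while Ucp1, the uncoupling protein that defines such cells, lay at up to 0.41 CPM in lean SAT and 1.61 to 5.16 in obese SAT, and at up to 0.88 and 6.49 to 15.4 CPM in lean and obese VAT. Elovl3, another of the 5, was at 0 in all groups but obese SAT, where it reached 0.15 CPM. Levels of these markers thus moved with diet and depot, and the part of cell composition in the values below was not tested.

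The members were expressed at levels that differ widely between genes. Per kilobase of the canonical transcript, the level averaged over all 16 libraries ran from 5.89 to 211 CPM, with a median of 27.0. Mrps6, the small-subunit protein bS6, stood at the top with 211 CPM per kilobase, before Mrpl33 (bL33) with 117.5 and Mrpl13 (uL13) with 79.1. At the bottom stood Mrpl19 (bL19) with 6.92, Mrpl52 (mL52) with 6.36 and Mrpl47 (uL29, which lies beside the exit of the peptide tunnel) with 5.89. Divided by coding length instead, the level still ran from 26.2 to 585.5 CPM per kilobase, and Mrps6 and Mrpl47 kept the highest and the lowest place. Mrps6 shares 404 bases of exon on the same strand with Slc5a3, a myo-inositol transporter, so the 2 genes' reads cannot be told apart there.

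Libraries of 1 group resembled each other closely in these genes. The SD of log2 CPM within groups had a median of 0.173 over the 36 members (range 0.110 to 0.436), against a median of 0.228 over the 3300 tested rows in the same range of levels.

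Promoter windows of RefSeq (300 bases, 250 before to 50 after a gene start, build GRCm38.p6) were at hand for 69 of the 78 genes, in 75 windows. They were searched on both strands for letters bound by 3 factors known for promoters of nuclear mitochondrial genes: GCGCATGC (NRF1), CCGGAAGT (the ETS family, which includes GABPA) and AAGATGGCG (YY1). These 3 strings cannot stand for each other, but a reverse copy of the NRF1 string can overlap a forward one. NRF1 letters stood in 8 of the members' 75 windows (10.7%) and in 2.71% of all 32851 windows. ETS letters stood in 12 of 75 and in 3.89%, and YY1 letters in 8 of 75 and in 1.40%. At least 1 of the strings was present in 26 of 75 members' windows (34.7%) and in 7.57% of all windows. A match of letters is a description and not a binding site. The windows of Mrpl33 and Mrps22 are shown because both genes differed between the depots (below) and hold a match right before the start. They are given 5′ to 3′ on the gene's strand with the matched letters in capitals, from 100 bases before the start to 10 bases from it on.
Mrpl33: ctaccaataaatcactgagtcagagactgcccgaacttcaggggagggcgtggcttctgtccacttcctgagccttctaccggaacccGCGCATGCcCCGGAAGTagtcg
Mrps22: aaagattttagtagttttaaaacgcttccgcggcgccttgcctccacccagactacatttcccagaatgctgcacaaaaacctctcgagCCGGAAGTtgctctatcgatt
The Mrpl33 stretch lies at chr5:31771195-31771304 on the plus strand of GRCm39 and the Mrps22 stretch at chr9:98483723-98483832 on the minus strand. In Mrpl33 an NRF1 match and an ETS match stand next to each other at the start, and in Mrps22 a single ETS match does.

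The first question was what the high-fat diet did to these genes in SAT. No member rose and 2 of 36 fell in SAT of obese mice, while 6.21% of all 13288 tested rows were called higher and 4.84% lower. Among the 3589 tested protein-coding genes with 1 row, which include the members and are most like them, 10.1% were called higher and 4.68% lower. A gene was called at a Benjamini-Hochberg adjusted p under 0.05 in edgeR's quasi-likelihood test, whatever the size of its change, and no member reached a log2 fold change of 1.5. Before adjustment 9 of 36 members had a p under 0.05, none of them higher in obese mice, against 25.1% of all tested rows and 30.5% of the protein-coding genes with 1 row. Values leaned to the lower side: 28 of 36 log2 fold changes lay below 0, with a median of -0.13 for the members, 0.01 for all tested rows and 0.04 for the protein-coding genes with 1 row. With 1 mouse left out at a time the members' median ran from -0.20 (without obese mouse 4) to -0.088 (without obese mouse 3).

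**Figure D1:**
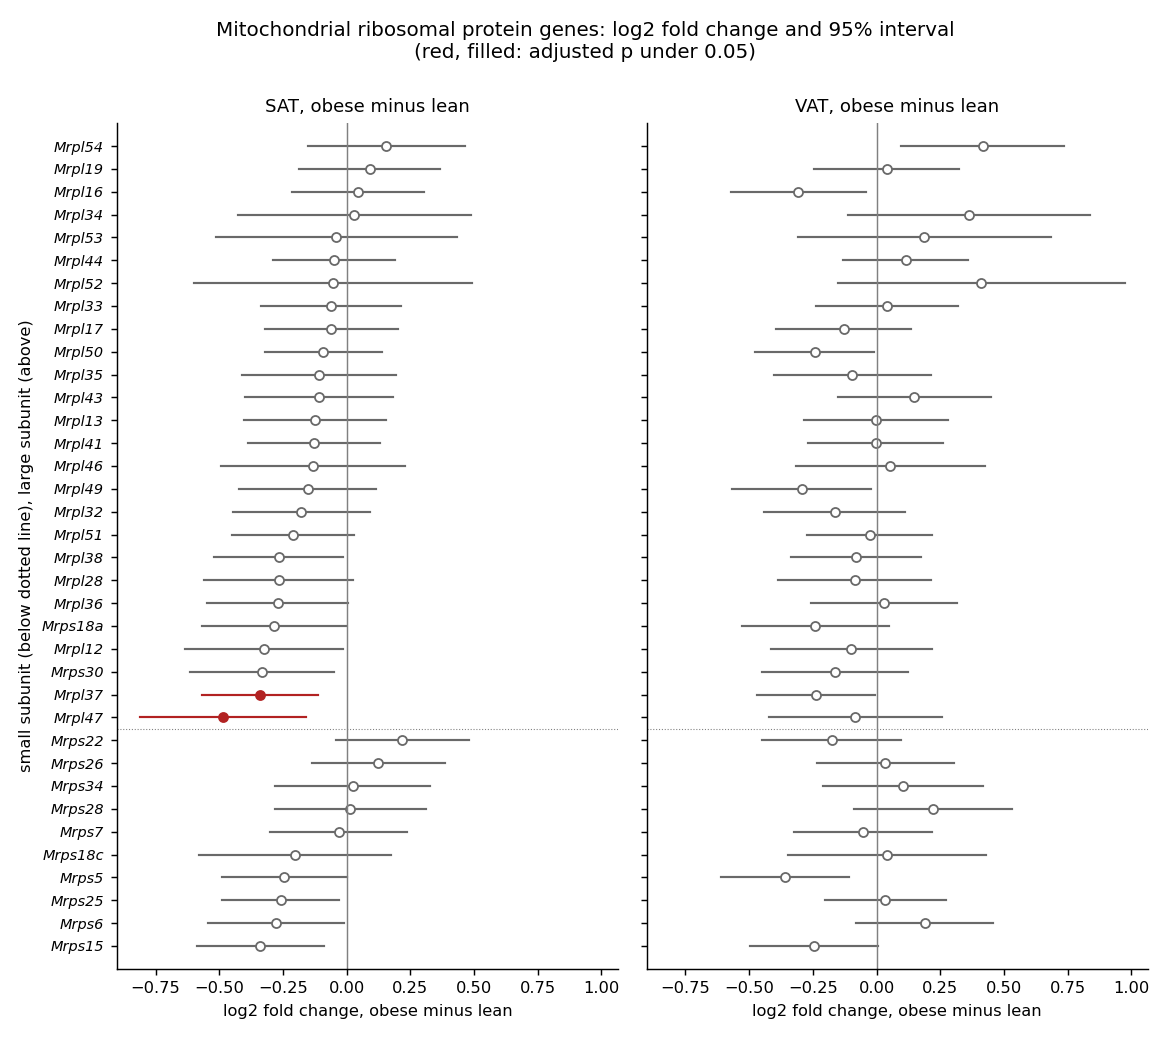
Log2 fold change (obese minus lean) of the 36 tested members with 1 row, in SAT (left) and VAT (right). Points are fitted values, lines are 95% intervals, and red points are the 2 genes called; in SAT 28 of 36 points lie below 0 and in VAT 20 of 36.

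Mrpl37, a large-subunit protein found only in mitochondria (mL37), stood at 94.8, 98.7, 97.5 and 89.4 CPM in the 4 lean SAT libraries and at 79.1, 72.5, 69.5 and 79.8 CPM in the obese ones. All 4 obese libraries lay below all 4 lean ones, with means of 95.1 ± 4.13 and 75.2 ± 5.03 CPM (SD, n = 4). Its log2 fold change was -0.34 (SE 0.11, edgeR adjusted p = 0.0490). Mrpl47 stood at 20.4, 22.0, 30.8 and 25.6 CPM in lean SAT and at 18.8, 15.3, 16.6 and 19.7 CPM in obese SAT. Here too the groups did not overlap, and the log2 fold change was -0.49 (SE 0.16, edgeR adjusted p = 0.0488). Both adjusted p-values were close to the limit. Neither gene was called once lean mouse 2, lean mouse 3, obese mouse 2 or obese mouse 3 was left out (0 members called lower each time). Mrpl47 was also lost without lean mouse 4 or obese mouse 1, and Mrpl37 without obese mouse 4, and both without a filter (adjusted p = 0.262 and 0.423). The fold changes stayed negative in all 17 alternatives, between -0.55 and -0.30 for Mrpl37 and between -0.70 and -0.36 for Mrpl47.

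Both genes share exon bases with genes on the opposite strand, Mrpl37 with Cyb5rl, which had no tested row, and Mrpl47 with Actl6a and Ndufb5. The library kit was directional, but the strand setting of the counting is not stated. Ndufb5, a respiratory complex I subunit, had a log2 fold change of -0.45 in SAT (SE 0.20, edgeR adjusted p = 0.162), and its part in the value of Mrpl47 was not tested.

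In 3 more members every obese SAT library lay below every lean one without a call. They were Mrps15 (log2 fold change -0.34, edgeR adjusted p = 0.0720), which shares 230 exon bases on its own strand with Oscp1, Mrps30 (-0.33, adjusted p = 0.125) and Mrps25 (-0.26, adjusted p = 0.145). With Mrpl37 and Mrpl47 this makes 5 of 36 members fully below, against 7.64% of all tested rows, and 0 of 36 fully above, against 9.61%. The highest values belonged to Mrps22 (0.22, 95% interval -0.04 to 0.48) and Mrpl54 (0.16, -0.15 to 0.46), neither of them called.

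In SAT each member has a 95% interval from the fit under TMM scaling, taken 1 gene at a time. All 36 intervals lay within a change of 2-fold in either direction, and 31 within 1.5-fold. By origin, the 18 members with a bacterial counterpart had a median of -0.15 and the 18 specific to mitochondria one of -0.12. The large-subunit members had a median of -0.13 and the small-subunit members one of -0.12. Mrpl12, which forms the stalk that recruits translation factors, had a log2 fold change of -0.33 without a call (edgeR adjusted p = 0.173). With library totals in place of TMM, which leaves the growth of Scd1 uncorrected, the median of all rows moved to -0.20 and that of the members to -0.34, and 18 members were called lower. The share of all rows called lower under library totals is not given here, so the count cannot be set against it. Relative to all rows the members stood at -0.14 under that scaling and at -0.13 under TMM.

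In VAT of obese mice 0 of 36 members were called by edgeR in either direction, while 6.84% of all tested rows were called higher and 4.08% lower, and 13.6% and 4.82% of the protein-coding genes with 1 row. Before adjustment 6 members (16.7%) had a p under 0.05, against 23.6% of all tested rows and 32.7% of the protein-coding genes with 1 row. DESeq2 called 1 member lower and limma voom none. The median log2 fold change was -0.02 for the members, 0.02 for all tested rows and 0.10 for the protein-coding genes with 1 row, with 16 members above 0 and 20 below. The members' median ran from -0.078 (without lean mouse 1) to -0.0027 (without lean mouse 3) when 1 mouse was left out. All 36 intervals again lay within 2-fold and 31 within 1.5-fold.

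Mrps5, the small-subunit protein uS5, came nearest to a call. It stood at 65.6, 63.1, 66.6 and 69.0 CPM in lean VAT and at 48.1, 55.0, 56.6 and 45.9 CPM in obese VAT. Every obese library lay below every lean one, with a log2 fold change of -0.36 (SE 0.12, edgeR adjusted p = 0.0603). DESeq2 gave an adjusted p of 0.0224 and RLE size factors one of 0.0431, and over all 17 alternatives it ran from 0.0224 to 0.267. Mrpl54, a large-subunit protein specific to mitochondria, was the only member whose obese VAT libraries all lay above the lean ones, at 32.1, 34.2, 35.9 and 31.9 CPM against 27.4, 22.1, 28.0 and 24.1 CPM. Its log2 fold change was 0.42 (SE 0.15, edgeR adjusted p = 0.0896), and it shares 3367 exon bases with Matk on the opposite strand. Members fully below numbered 2 of 36 (Mrps5 and Mrps15), against 5.0% of all tested rows, and the 1 fully above stands against 8.35%. Mrpl16 (uL16) followed with -0.31 (adjusted p = 0.138), and Mrpl34 (bL34) with 0.36 (adjusted p = 0.365), both with overlapping groups. With 1 mouse left out at a time Mrpl16 ran from -0.42 to -0.22 and Mrpl34 from 0.15 to 0.51.

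A further test, fitted with 1 term per mouse, asked whether SAT and VAT responded differently to the diet. By edgeR 0 of 36 members were called, against 0.888% of all tested rows called higher and 1.29% lower (1.92% and 2.12% of the protein-coding genes with 1 row), and DESeq2 and limma voom called none as well. Only Mrps6 had an unadjusted p under 0.05, while 14.7% of all tested rows and 22.9% of the protein-coding genes with 1 row did. The VAT response exceeded the SAT response in 27 of 36 members, with a median difference of 0.15 on the log2 scale against 0.03 for all rows and 0.08 for the protein-coding genes with 1 row. Mrps6 had the lowest p, with a difference of 0.46 (SE 0.17, edgeR adjusted p = 0.183): its values were -0.28 in SAT and 0.19 in VAT, neither called. With library totals in place of TMM this was the 1 member called (0.66, adjusted p = 0.0216). Slc5a3, the gene that shares its exon, fell in SAT of obese mice by 0.58 on the log2 scale (adjusted p = 0.0357). In VAT its value was -0.41 (adjusted p = 0.150), below 0 where that of Mrps6 was above, and its difference of diet responses was 0.13 (adjusted p = 0.826). On the lower side Mrps22 had a difference of -0.39 (adjusted p = 0.343). The median difference dropped to 0.04 without obese mouse 3, so its size rests in part on that animal.

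**Figure D2:**
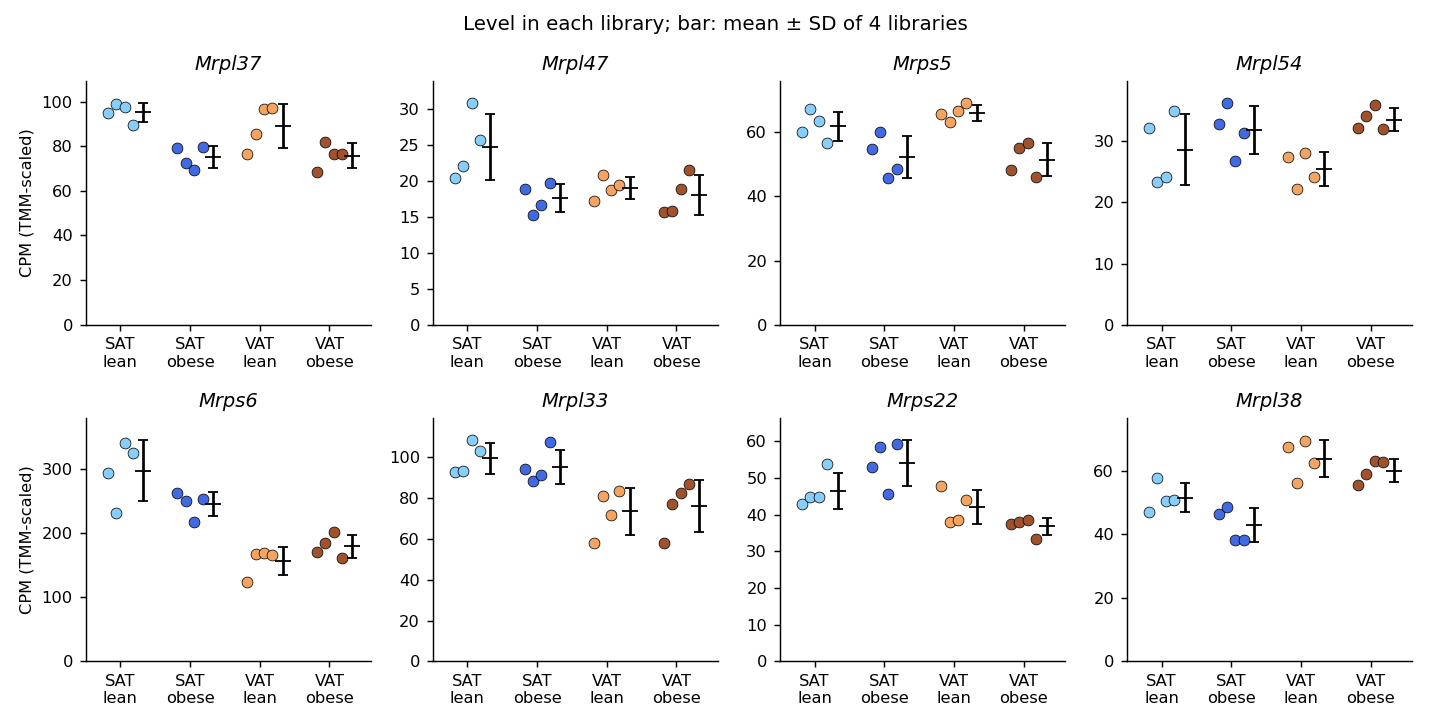
CPM after TMM scaling of 8 members in each of the 16 libraries, with the mean ± SD of each group of 4 at its right. Mrpl37 and Mrpl47 are lower in obese than in lean SAT, Mrps6 and Mrpl33 are lower in VAT than in SAT in both diets, and the VAT value of Mrpl38 is above SAT in obese mice.

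A second comparison set VAT against SAT within the same mice, again with 1 term per mouse. It shares libraries with the diet comparisons, so the values below are not independent of those above. In lean mice 0 of 36 members were higher and 4 were lower in VAT, against 7.98% and 6.84% of all tested rows and 14.2% and 11.2% of the protein-coding genes with 1 row. The share of members called lower thus lay near that of the latter. Before adjustment 11 members (30.6%) had a p under 0.05, against 27.0% of all tested rows and 40.3% of the protein-coding genes with 1 row. DESeq2 and limma voom called none higher as well. The median log2 difference was -0.17 for the members and 0.01 for all rows, with 28 of 36 below 0. With library totals in place of TMM, 1 member was higher and 1 lower. In obese mice 1 member was higher (15.9% of all rows, 26.2% of the protein-coding genes with 1 row) and 5 were lower (13.5% and 18.4%), with medians of -0.03 for the members, 0.04 for all rows and 0.06 for those genes. With library totals 12 were higher and 0 lower there, and the median of all rows moved to 0.37. The share of all rows called under library totals is not given here. In the same comparison 9 of 12 adipocyte marker rows were lower in VAT, and their part was not tested. No member differed by more than 1.5 on the log2 scale.

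Mrps6 showed the largest depot difference of all members in lean mice. It stood at 293, 232, 340 and 324 CPM in lean SAT and at 124, 167, 169 and 166 CPM in lean VAT, a log2 difference of -0.91 (SE 0.12, edgeR adjusted p = 1.11e-05). In obese mice the 4 SAT libraries held 262, 249, 218 and 253 CPM and the VAT libraries 171, 185, 202 and 160 CPM, a difference of -0.45 (SE 0.12, adjusted p = 0.00720). SAT and VAT did not overlap in either diet. In obese mice the call was lost without obese mouse 4 (-0.38, adjusted p = 0.0596) and with library totals (-0.12, adjusted p = 0.424). Slc5a3, which shares the exon with it, was lower in VAT by more: it stood at 1166 ± 96.9 CPM in lean SAT and 492 ± 96.0 CPM in lean VAT (SD, n = 4), with differences of -1.26 in lean and -1.13 in obese mice, both called. Its part in the value of Mrps6 was not tested. In bacteria bS6 binds the ribosome together with bS18, and Mrps18c, a relative of bS18 in the small subunit, was also lower in VAT of lean mice. It held 47.1, 48.5, 60.1 and 55.5 CPM in lean SAT and 22.3, 45.4, 42.8 and 41.5 CPM in lean VAT, a difference of -0.47 (SE 0.15, edgeR adjusted p = 0.0368). The lowest of these is the library with the fewest counts, and without that mouse the difference was -0.34 and not called (adjusted p = 0.155). It was not called without lean mouse 3 or lean mouse 4 either, with adjusted p-values between 0.0829 and 0.155, nor with library totals, no filter, limma voom or no mouse term (0.0921 to 0.143). Mrps18c shares exon bases with Abraxas1 and Helq on the opposite strand, neither of which had a tested row, and 112 bases on its own strand with Gm43511. In obese mice Mrps18c differed by -0.19 (adjusted p = 0.362). Its paralog Mrps18a, placed in the large subunit, had values of -0.06 in lean and -0.02 in obese mice, neither called.

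Mrpl33, whose promoter is shown above, was lower in VAT under both diets. Lean SAT held 92.7, 93.0, 108 and 103 CPM and lean VAT 58.0, 81.0, 71.8 and 83.3 CPM, a log2 difference of -0.43 (SE 0.12, edgeR adjusted p = 0.0195). Obese SAT held 94.1, 88.1, 91.0 and 107 CPM and obese VAT 58.1, 76.8, 82.4 and 86.7 CPM, a difference of -0.33 (SE 0.12, adjusted p = 0.0489). The depots did not overlap in either diet, while the diets overlapped in both depots. In lean mice the call was lost without lean mouse 1 (-0.37, adjusted p = 0.0690) or lean mouse 3 (-0.38, adjusted p = 0.138), with library totals (-0.29, adjusted p = 0.0937) and without a filter (adjusted p = 0.0792). In obese mice it was lost without lean mouse 2, lean mouse 3, obese mouse 1, obese mouse 3 or obese mouse 4 (adjusted p from 0.0548 to 0.168), without a filter and with no mouse term (0.0707 and 0.0825), and with library totals the value turned to 0.0096. Mrpl33 shares 107 exon bases on its own strand with the non-coding Gm43809. Mrpl13 (uL13) was the fourth member lower in VAT of lean mice, at -0.38 (SE 0.12, adjusted p = 0.0417). Its call was lost without lean mouse 1, lean mouse 3, lean mouse 4 or obese mouse 3 (adjusted p from 0.0520 to 0.194) and with library totals, no filter, limma voom or no mouse term (0.0597 to 0.169), and it shares exon bases with Mtbp on the opposite strand, which had no tested row.

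**Figure D3:**
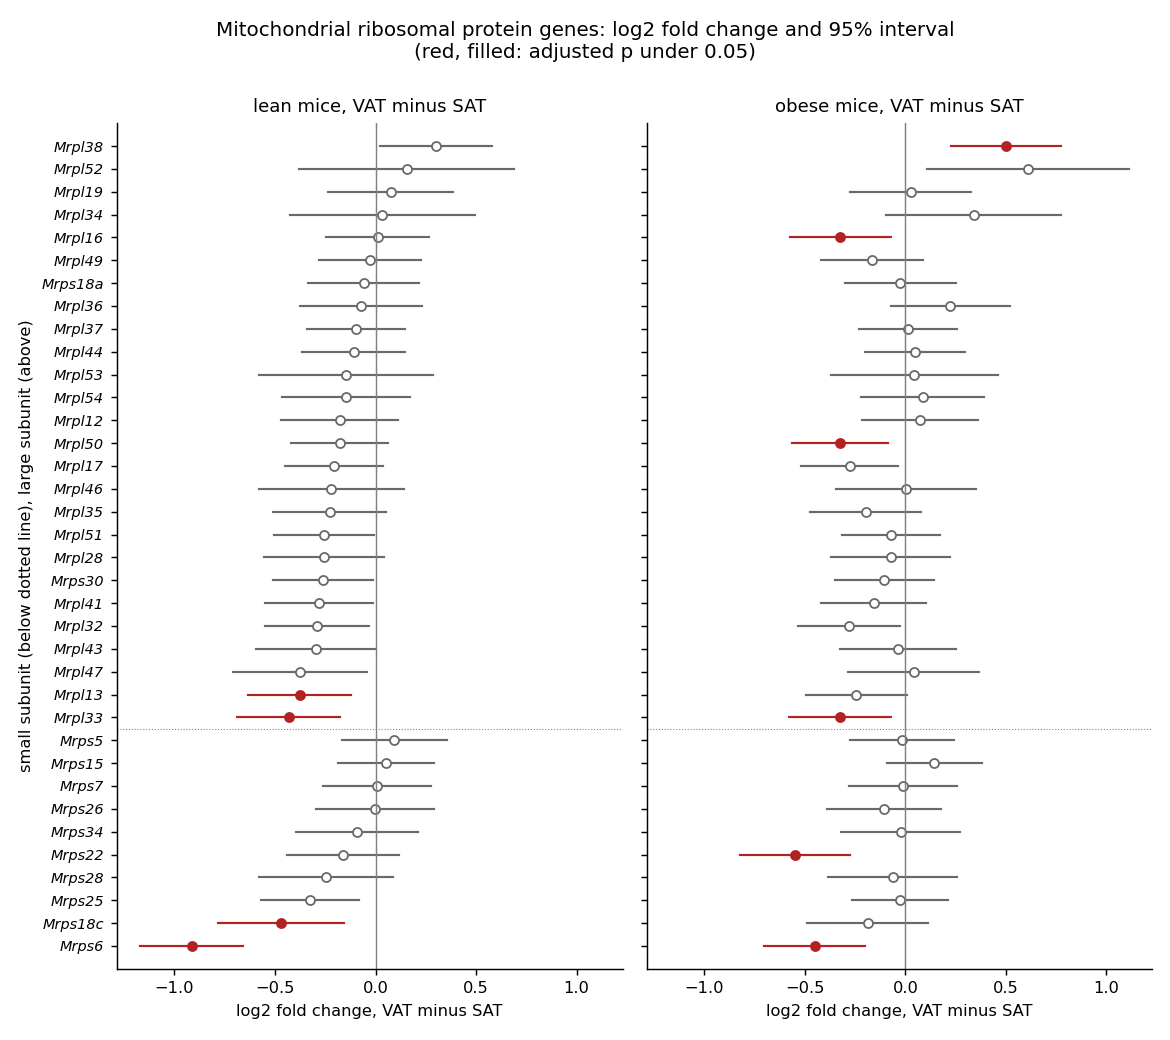
Log2 fold change (VAT minus SAT) of the 36 members in lean (left) and obese mice (right), with 95% intervals and called genes in red. Red points lie at the left of 0 except for Mrpl38, and Mrps6 lies farthest left in lean mice.

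Mrps22 and Mrpl38 differed between the depots of obese mice. Mrps22, a small-subunit protein specific to mitochondria (mS22), held 53.0, 58.5, 45.6 and 59.4 CPM in obese SAT and 37.4, 38.0, 38.6 and 33.4 CPM in obese VAT. That is a log2 difference of -0.55 (SE 0.13, edgeR adjusted p = 0.00288), the farthest below 0 of the members there, and no library of one depot reached into the other. With library totals the difference was -0.22 and not called (adjusted p = 0.214). In lean mice it differed by -0.16 (adjusted p = 0.497), with overlapping depots. Mrps22 shares 197 exon bases with Copb2 on the opposite strand, a coat protein of transport vesicles, which was itself lower in VAT of obese mice by -0.31 (SE 0.11), and the part of Copb2 was not tested. Mrpl38, a large-subunit protein specific to mitochondria (mL38), was the only member called higher in VAT. It held 46.5, 48.5, 38.3 and 38.1 CPM in obese SAT and 55.4, 58.9, 63.1 and 62.6 CPM in obese VAT, a difference of 0.50 (SE 0.13, edgeR adjusted p = 0.00613). All VAT libraries lay above all SAT libraries. In lean mice Mrpl38 differed by 0.30 (SE 0.13, adjusted p = 0.145). Without obese mouse 3 or obese mouse 4 it was no longer called (adjusted p = 0.0515 and 0.0516), nor was it without a filter (0.42, adjusted p = 0.0866).

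The other members lower in obese VAT were Mrpl50 (mL50, -0.32, SE 0.12, edgeR adjusted p = 0.0375) and Mrpl16 (-0.32, SE 0.12, adjusted p = 0.0495), both of which turned to 0.01 with library totals. Mrpl50 was not called without lean mouse 3, obese mouse 1 or obese mouse 4 (adjusted p from 0.0551 to 0.219), nor was Mrpl16 without lean mouse 2, lean mouse 3 or any 1 of the obese mice (0.0522 to 0.175). Neither was called without a filter (0.0594 and 0.112), and Mrpl16 was not called with no mouse term (0.0601). Leaving out 1 mouse at a time gave between 1 and 6 members called lower in obese mice and between 1 and 4 in lean mice. The lean counts fell to 1 without lean mouse 1 or lean mouse 3 and to 2 without lean mouse 4. In obese mice 1 member was called lower without obese mouse 4, 2 without obese mouse 1 or lean mouse 3, and 3 without obese mouse 3 or lean mouse 2, and the median fell to -0.16 without obese mouse 3. With library totals in place of TMM the median of all rows in obese mice moved to 0.37 and that of the members turned to 0.30, so that relative to all rows the members stood at -0.07 under either scaling.

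Summed over the 36 members, lean SAT held 2192 to 2505 CPM, obese SAT 1949 to 2262, lean VAT 1824 to 2121 and obese VAT 1733 to 2125. Diets overlapped within each depot, and lean SAT lay above lean VAT without overlap. Both statements depend on TMM. As a percent of all counts the members held 0.214 to 0.250 in lean SAT, 0.171 to 0.188 in obese SAT, 0.213 to 0.228 in lean VAT and 0.201 to 0.216 in obese VAT, so that the diets did not overlap in SAT and the lean depots did. The ratio of large-subunit to small-subunit CPM was 1.93 ± 0.05 in lean SAT, 1.95 ± 0.10 in obese SAT, 2.18 ± 0.05 in lean VAT and 2.08 ± 0.10 in obese VAT (SD, n = 4). Without Mrps6 these ratios became 3.05 ± 0.12, 2.96 ± 0.16, 2.90 ± 0.12 and 2.91 ± 0.09, and all 4 groups overlapped. Only with Mrps6 counted did the ratios of lean SAT and lean VAT not overlap.

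**Figure D4:**
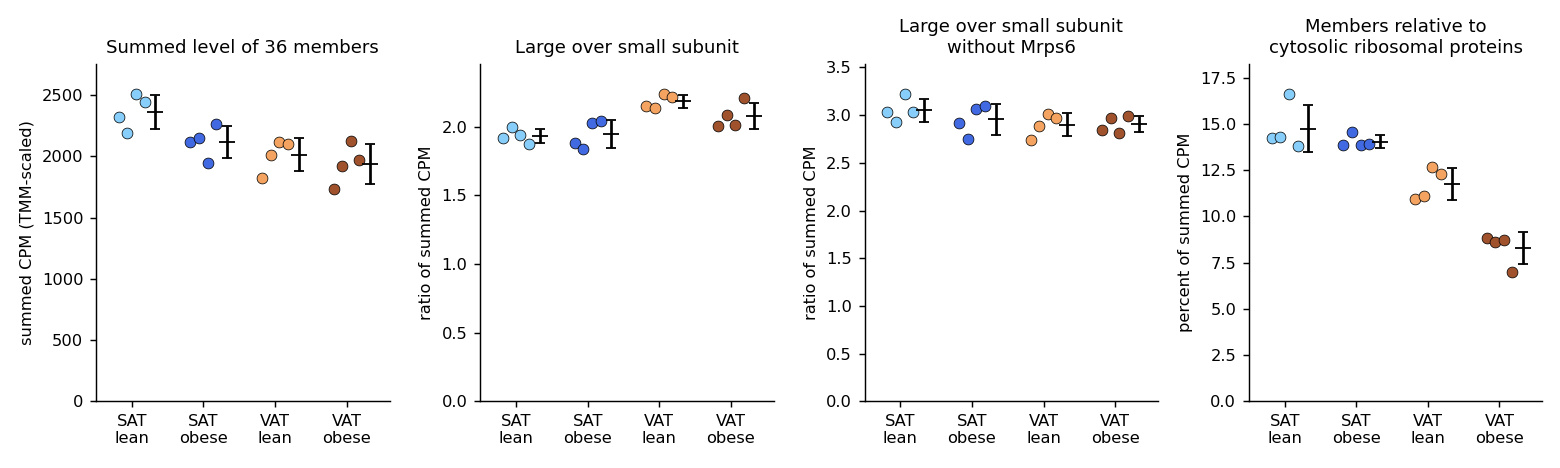
Summed CPM of the 36 members, the ratio of large-subunit to small-subunit CPM with and without Mrps6, and the members' sum as a percent of the sum of cytosolic ribosomal proteins, per library with mean ± SD. The percent in obese VAT (7.02 to 8.83) lies below lean VAT (10.9 to 12.7), and the subunit ratio overlaps between groups once Mrps6 is left out.

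Cytosolic ribosomal proteins build the ribosomes outside mitochondria and were set beside the members. Many of them have processed pseudogenes with which reads can be shared. In VAT of obese mice 31 of 47 tested cytosolic ribosomal protein genes with 1 row rose and none fell by edgeR, with a median log2 fold change of 0.48, and all 47 lay above 0. Rpl37, for instance, rose from 138 ± 11.5 to 228 ± 26.8 CPM (SD, n = 4). Of all tested rows 6.84% were called higher in this comparison, and of the protein-coding genes with 1 row 13.6%. In SAT none was called in either direction, none had an unadjusted p under 0.05, and the median was -0.07. The difference between the depots' diet responses was called for 9 of the 47, all toward VAT. In that direction 0.888% of all tested rows and 1.92% of the protein-coding genes with 1 row were called. The members' sum, as a percent of the cytosolic sum, was 14.7 ± 1.25 in lean SAT, 14.0 ± 0.35 in obese SAT, 11.7 ± 0.87 in lean VAT and 8.30 ± 0.86 in obese VAT (SD, n = 4). Obese VAT lay wholly below lean VAT in this percent, while the 2 diets overlapped in SAT.

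The respiratory chain, which mitoribosomes serve, is encoded partly in the nucleus and partly in mitochondrial DNA. Of 44 tested nuclear respiratory chain and ATP synthase genes with 1 row, 1 fell in SAT of obese mice (Ndufb10, -0.50, SE 0.11) with a median of -0.22, and 4 fell in VAT with a median of 0.00. The 4 were Sdha, Uqcrc2, Atp5b and Ndufv1, subunits of complexes II, III, V and I. Of all tested rows 4.84% were called lower in SAT and 4.08% in VAT. Of the protein-coding genes with 1 row 4.68% and 4.82% were. The 13 protein genes of mitochondrial DNA, the products of mitochondrial translation, had median log2 fold changes of -0.23 in SAT, with 0 called (3 with an unadjusted p under 0.05), and of -0.48 in VAT, with 4 called lower. CYTB, ND4 and ND5 fell by 0.59, 0.60 and 0.63 on the log2 scale in VAT. COX3, the fourth, held 26.5 ± 16.2 CPM in lean VAT against 32202 ± 5572 for CYTB (SD, n = 4). Group means of ATP6, ATP8, COX2, COX3, ND3 and ND4L reached at most 89.5 CPM, whereas those of the other 7 genes were at least 3020 CPM, and why these rows are low was not tested. Between the depots of lean mice 13 of the 44 nuclear genes were lower in VAT and none higher, with a median of -0.28, and in obese mice 12 were lower and 2 higher. Of all tested rows 6.84% were lower and 7.98% higher in lean mice, and 13.5% and 15.9% in obese mice. For the protein-coding genes with 1 row the shares were 11.2% and 14.2% in lean mice, and 18.4% and 26.2% in obese mice.

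**Figure D5:**
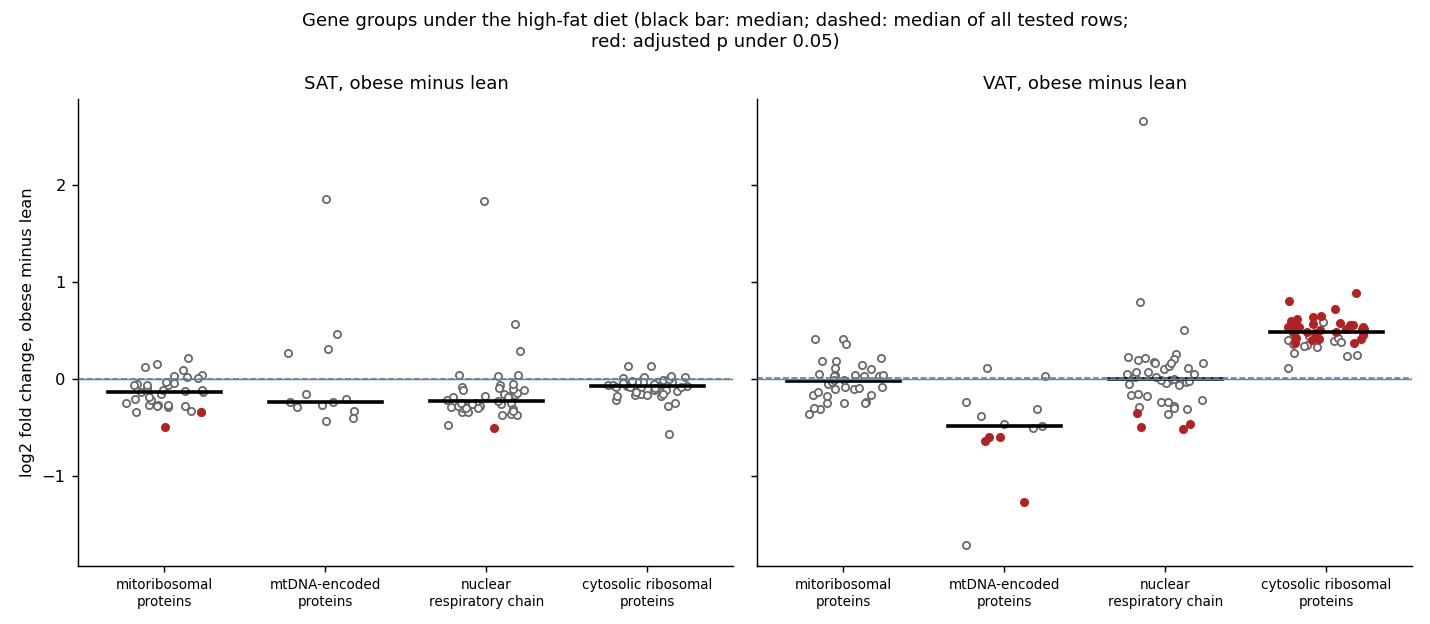
Log2 fold change (obese minus lean) in SAT (left) and VAT (right) of the 36 mitoribosomal protein genes, 13 proteins of mitochondrial DNA, 44 nuclear respiratory chain genes and 47 cytosolic ribosomal protein genes. Black bars are medians (in VAT -0.02, -0.48, 0.00 and 0.48), red points are called genes, and the dashed line is the median of all tested rows.

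Other genes of mitochondrial translation mostly have several rows, so few of them could be followed. Among 8 tested factors of mitoribosome assembly and ribosomal RNA modification, Mettl17, an assembly factor of the small subunit, fell in SAT by 0.49 on the log2 scale (edgeR adjusted p = 0.0443), and none was called in VAT (1 with an unadjusted p under 0.05). In obese mice Mettl17 (0.68) and the pseudouridine synthase Rpusd4 (0.57) were higher in VAT than in SAT. Of 6 tested translation factors and related proteins none was called in either diet comparison (1 with an unadjusted p under 0.05 in each depot). They were Gfm1, Mtfmt, Oxa1l, Slirp, Taco1 and Tsfm. The elongation factor Gfm1 was lower in VAT of obese mice (-0.42), and Slirp, which stabilizes mitochondrial messenger RNA, was lower in VAT of lean mice (-0.44). Of 3 tested genes of mitochondrial DNA expression, Hsd17b10, a subunit of the enzyme that trims mitochondrial transfer RNA, fell in SAT by 0.57 (adjusted p = 0.0114). The 2 tested mitoribosome proteins under other symbols, Chchd1 and Gadd45gip1, were not called under the diet, and Gadd45gip1 was higher in VAT of obese mice (0.68). Neither of the 2 tested genes for charging mitochondrial transfer RNA (Gatc and Mars2) was called in any of these comparisons, and none of the 9 regulators of mitochondrial biogenesis listed had a tested single row. The shares of all tested rows called in each comparison are those given above.

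The 40 genes with several rows gave 39 tested rows from 26 genes, while 90 of their 160 rows were at 0 counts. Under the diet 0 of the 39 rows were called by edgeR in SAT or VAT, with medians of -0.19 and -0.06, and 2 and 1 rows had an unadjusted p under 0.05. In lean mice 2 of the 39 rows were lower in VAT and 0 higher, against 6.84% and 7.98% of all tested rows. They were 1 row each of Mrps14 (uS14) and Mrps33 (mS33), with differences of -0.53 for both (edgeR adjusted p = 0.0380 and 0.0405). In both rows the lowest lean VAT value (9.55 and 19.1 CPM) came from 15 and 30 counts in the library with the fewest counts. The part of that library was not tested. In obese mice a row of Mrps18b, the third of the Mrps18 paralogs, was lower in VAT: it held 16.7, 16.3, 17.6 and 16.6 CPM in SAT and 8.40, 10.4, 12.7 and 11.4 CPM in VAT, a difference of -0.63 (SE 0.17, adjusted p = 0.00594). That makes 1 of the 39 rows lower and 0 higher there, against 13.5% and 15.9% of all tested rows. The single tested rows of Mrpl58, a peptide release factor built into the large subunit, and of Mrpl3 (uL3) were not called in any comparison. Nor was that of Mrps36, which is counted here by its symbol and belongs to the 2-oxoglutarate dehydrogenase complex. No row of Mrps12, the decoding-centre protein uS12, passed the filter.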

How the data were processed

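Poly(A) RNA of 16 adipose samples was sequenced with a directional kit. Per the labels (the submitters' processing notes), the authors trimmed reads with Trim Galore 0.6.6, aligned them to GRCm39 with HISAT2 2.2.0 and counted them with HTSeq 0.13.5, and they deposited raw counts and CPM per RefSeq transcript. The study's methods print another version of Trim Galore. The deposited counts were used, and the deposited CPM equals counts over the library total. The strand setting and the treatment of shared reads are not given in the sources used here.

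Symbols came from a RefSeq table of GRCm38.p6 (82.0% of rows matched). Gene positions, exon overlaps and lengths came from GENCODE on GRCm39, and promoter sequences from RefSeq. A row without a symbol could be another transcript of a member. The 36 single-row members are named by rule: called genes with the smallest adjusted p, the 2 smallest p where none was called, the highest and lowest levels per length, and roles. Other members named were chosen after their values were seen. The members and lists were chosen with earlier results of these data known, and sets written from memory stand in for pathways.

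Rows with CPM above 1 in at least 3 libraries (13288) entered the quasi-likelihood F-test of edgeR 4.0.16 under R 4.3.3, after TMM scaling and with legacy=TRUE (Benjamini-Hochberg over all rows, limit 0.05). Diets were compared in a fit of 4 groups, depots and the difference of diet responses with a term for each mouse, since each mouse gave both tissues. Deviations of the 2 libraries of a mouse had correlations of -0.009 to 0.173. For the diets, p-values measure the spread between these mice. For the depots and the difference of diet responses, they measure how the VAT-minus-SAT difference varied between these mice. Fold changes have standard errors |log2 fold change|/√F. Scripts were tested on simulated counts. Alternatives were RLE factors, library totals, no filter, DESeq2 1.42.0, limma 3.58.1 voom, counts per symbol and single-tissue fits. Others were the replicate number as a block (diets), no mouse term (depots), each mouse left out, and the library with the fewest counts left out. No list was tested as a set. Levels limit low genes by counting error: 1256082 total counts make 1 count 0.796 CPM before TMM scaling and 0.637 CPM after it.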

Additional observations from a re-analysis of the deposited data

Results flagged for a closer look

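In each group of 4 libraries the highest and lowest values of 17 named members were compared with their neighbours. In 5 of 68 groups an extreme library had a gap to the nearest one that exceeded Dixon's 95% limit for 4 samples. The groups share libraries and are not independent, so this count cannot be set against a share given by chance. In lean VAT, library 1, which has the fewest counts, was lowest for Mrps6 (124 CPM against 166 to 169, gap 0.931 of the range), Mrpl50 (91.1 against 113 to 116, 0.889) and Mrps18c (22.3 against 41.5 to 45.4, 0.830). In the same group library 3 was highest for Mrps18a (59.9 CPM against 43.9 to 45.6, 0.898). In lean SAT library 4 was highest for Mrps22 (53.8 CPM against 43.1 to 44.7, 0.844). The part of library 1's depth in its values was not tested. For the diet comparison in VAT without that library, 2 members were called lower.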

How the results depend on the processing

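Of the members' counts and medians, 193 of 237 values under alternatives kept within 1.5 times of the count or within the spread. Library totals alone gave 18 members lower in SAT (median -0.34), 1 lower in VAT, 1 higher and 1 lower between lean depots (median -0.028), 12 higher and 0 lower between obese depots (median 0.30), and 1 higher for the difference of diet responses (median 0.34). Shares of all tested rows called under library totals are not given here. Without a filter, which adds rows to the adjustment, 0 members were lower in SAT, 1 between lean depots, and 0 higher and 2 lower between obese depots. In VAT 1 member was lower with RLE factors, with DESeq2 and with counts per symbol, and 2 without the library with the fewest counts. Limma voom called 2 higher between obese depots. The replicate block changed no call on the diet (2 lower in SAT, 0 in VAT), and the labels tie replicate numbers to nothing shared across diets. Deviations of same-numbered libraries had correlations of -0.094 to 0.054 in SAT and of 0.081 to 0.173 in VAT (medians 0.0012 and 0.12), against medians of -0.0017 and -0.052 for other numbers, and 1 of 8 libraries in SAT and 6 of 8 in VAT correlated best with their own number. With no mouse term 2 members were lower between lean depots and 3 between obese depots. Leaving out 1 mouse at a time gave 0 to 3 lower in SAT, 0 to 2 in VAT, 1 to 4 between lean depots, 0 to 2 higher and 1 to 6 lower between obese depots (median -0.16 to -0.018), and a median of 0.040 to 0.17 for the difference of diet responses.

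Of the members called, Mrpl50, Mrpl16 and Mrpl33 between obese depots (-0.32, -0.32 and -0.33) turned sign with library totals (0.011, 0.012 and 0.0096). The other values that turned sign belonged to comparisons without a call for that gene. With library totals these were Mrpl54 (-0.064) and Mrpl19 (-0.12) in SAT. Without a filter, Mrpl33 (-0.0041), Mrpl19 (-0.0070) and Mrps18c (-0.0069) turned in VAT, as did Mrpl19 with counts per symbol (-0.0016), and Mrpl33 (-0.046) and Mrps18c (-0.10) without the library with the fewest counts. Leaving out 1 mouse gave -0.063 to 0.10 for Mrpl33, -0.12 to 0.057 for Mrpl13, -0.028 to 0.069 for Mrpl19 and -0.12 to 0.13 for Mrps18c in VAT, and -0.23 to 0.068 for Mrpl52 in SAT. The cause was not tested.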
